A study of Danio rerio with 4 samples.

Results

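Genes whose names mark them as chromatin and histone regulators were examined in the primordial germ cells, from which eggs and sperm descend, of zebrafish embryos with and without normal function of the germline RNA-binding protein Dead end. The members were every row of the authors' gene table whose symbol begins with the name of a histone variant, a histone chaperone, a high mobility group (HMG) protein, a histone-modifying or DNA-methylating enzyme, a nucleosome remodeller subunit or a chromatin reader. This rule used names and no measured value, but it was chosen with earlier results of these data known. It found 49 of the 2477 rows, which carry 46 symbols because 4 rows are all named h3f3b.1. The embryos were of the AB strain and 13 hours post fertilization, and all had been injected with a morpholino, a modified antisense oligomer made to hinder translation or splicing of 1 target RNA. In the control group it was a control morpholino (2 libraries), and in the other group it was directed against dead end (2 libraries). In both groups the cells were sorted by EGFP fluorescence restricted to the germline, and their mRNA was sequenced with a directional kit. The labels give neither the construct that carries the EGFP nor the clutches behind each library, so the authors' p-values may reflect technical spread only.

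Chromatin packs DNA around histone proteins, and its regulators decide which genes can be read. Writers and erasers add or remove methyl and acetyl groups on histones and on DNA, readers bind these marks, remodellers move nucleosomes with the energy of ATP, and chaperones and HMG proteins handle histones and bend or loosen the fibre. Germ cells of many animals keep somatic programmes silent through such factors. The question taken from the title of the series is how germ cell fate is kept against somatic differentiation when Dead end is reduced.

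Each gene had 1 FPKM value per group (fragments scaled by transcript length and library size), made by the authors from both libraries of that group, so no spread between libraries can be given and sequencing depth is unknown. FPKM compares levels between genes per length. A gene was called changed where the authors' q was under 0.05 and the higher group had 1 FPKM or more. Every row of the table has q under 0.05, so genes that did not pass the authors' limit, among them any further chromatin regulators, were not analysed here, and the counts below describe the direction of changes and not how often such genes changed. Folds are ratios of the authors' FPKM values. Paralogs with near-identical sequence, such as the H3.3 genes, can share reads.

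Chromatin regulators were mostly higher in the germ cells of dead end morphants. Of the 49 members 48 were called, against 98.1% of all rows, and 43 (87.8%) were higher with the dead end morpholino, against 64.6% of all rows, counted in the authors' deposited table. The number lower was 5 (10.2%), against 33.6% of all rows. These counts depend on what the FPKM values are set against. Relative to the FPKM summed over all rows, 12 of the 48 called members were lower, and the median log2 change of all 48 was 0.25 in place of 1.25. Of the 2431 called rows 927 were then lower, and the median of all 2431 was 0.21 in place of 1.19. Relative to the ribosomal protein genes, 18 members and 1202 of all called rows were lower. The medians were then 0.063 over all 48 called members and 0.0086 over all 2431 called rows. The 5 genes lower as deposited were the remodeller subunit genes smarca2 and smarcc1b, the reader genes brd2b and phf20a, and the methyltransferase gene setd3. The remaining member, the Polycomb reader gene cbx7b, was given at 0.814 FPKM in controls against listed at 0 FPKM in dead end morphants, under the minimum of 1 FPKM. The member with the next lowest peak level was tet2, at 4.74 FPKM in dead end morphants. The rises of members spanned 1.80-fold to 5.80-fold (median 2.54-fold), and the falls spanned 2.17-fold to 4.63-fold (median 3.49-fold).

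**Figure D1:**
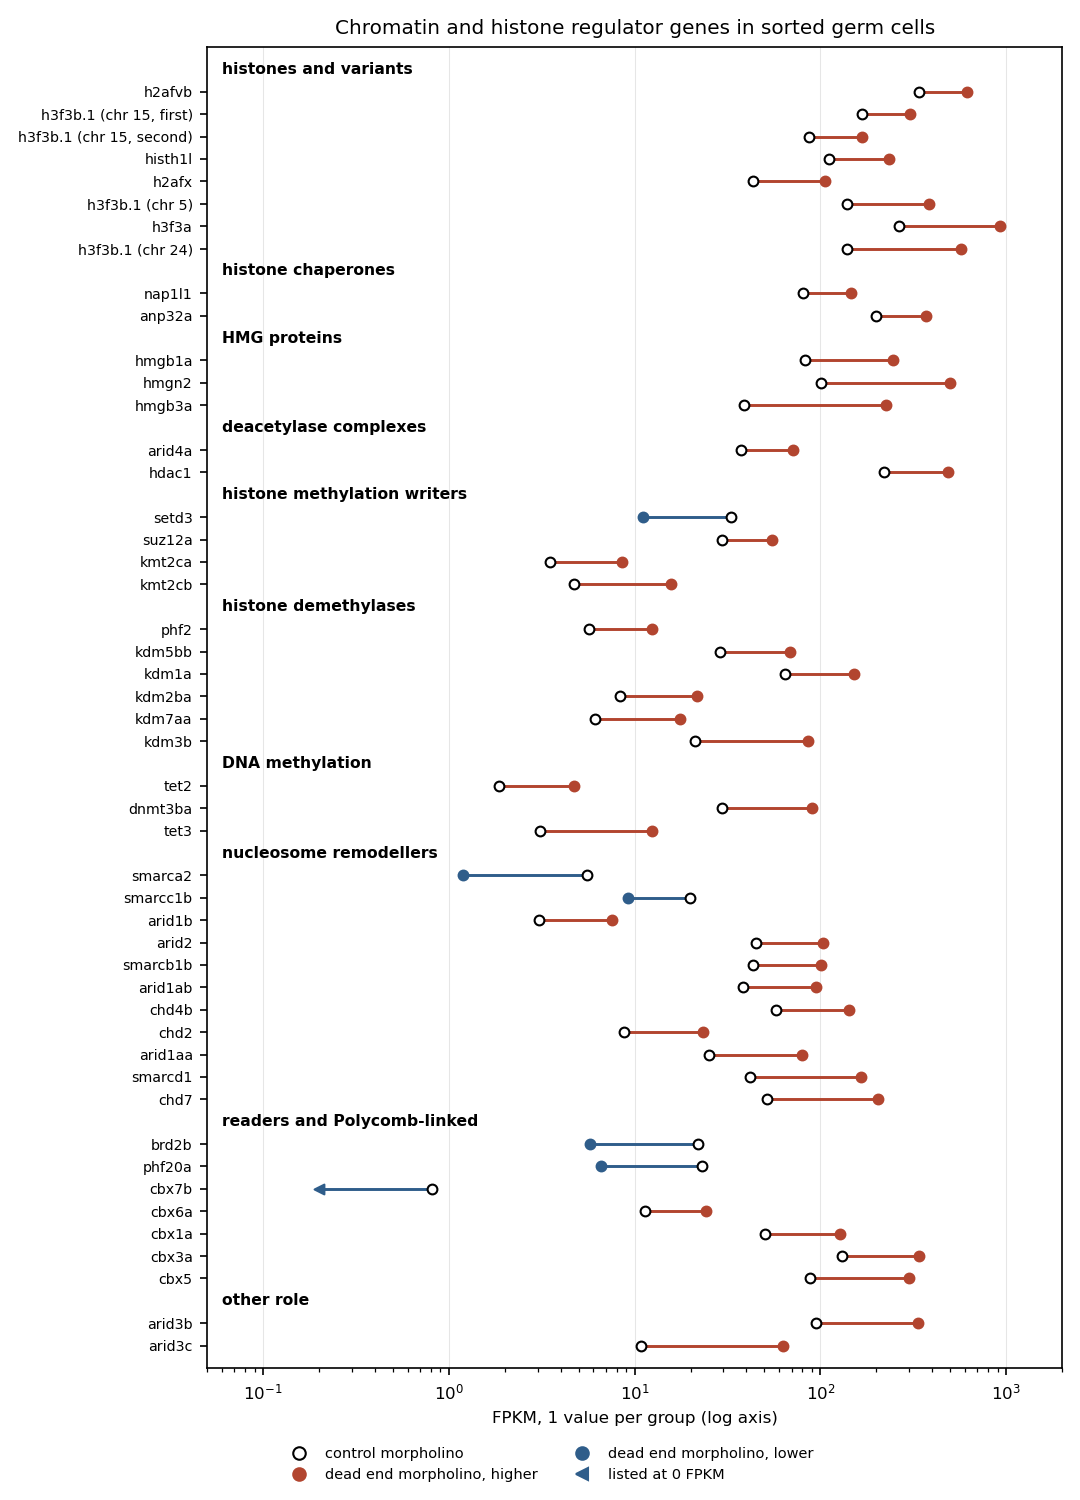
FPKM of 48 of the 49 genes, grouped by role, in germ cells with the control morpholino (open circles) and with the dead end morpholino (filled circles), on a log axis; each point is the authors' 1 value per group, so there are no error bars. Red lines run to higher values as deposited, and 7 and 13 of them turn lower relative to the table sum and the ribosomal protein genes; blue lines mark 6 lower genes, with cbx7b drawn as an arrow because it is listed at 0 FPKM.

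Histone genes rose in all 8 rows of the class as deposited, where 64.6% of all rows were higher. Relative to the table sum h2afvb and 2 of the h3f3b.1 rows turned lower, and histh1l as well relative to the ribosomal protein genes. The replication-independent histone H3.3, which replaces H3 in nucleosomes outside S phase, is encoded by 5 of the 8 rows. The authors' name h3f3b.1 covers separate loci whose symbols differ in a reference table of gene names, among them h3f3d (chromosome 24) and H3-3B (chromosome 5). The gene h3f3a (ENSDARG00000020504, chromosome 3, 47824035 to 47825789) had 265 FPKM in controls against 925 FPKM in dead end morphants, the highest level of any member. The h3f3b.1 row on chromosome 24 (37800831 to 37805131) went from 139 to 572 FPKM and that on chromosome 5 (36345113 to 36349323) from 139.8 to 383 FPKM. These 3 rows rose 3.50-fold, 4.11-fold and 2.74-fold, each with q = 0.00107 in the authors' deposited table, which is the smallest q in it. That q is shared by 774 of the 2477 rows, 21 of the 49 members among them, so it does not rank genes. The remaining h3f3b.1 rows lie 2337 bases apart on chromosome 15. They rose from 167 to 304 FPKM (1.82-fold, q = 0.0371) and from 86.5 to 167 FPKM (1.93-fold, q = 0.0385), both per the authors' deposited table. These factors are smaller as printed, but by the implied errors given below the first row could not be ranked against that on chromosome 24. Summed over the 5 rows, which lessens the effect of reads shared among them, H3.3 transcripts went from 797 to 2350.4 FPKM, or 2.95-fold.

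The other histone rows rose by smaller factors than h3f3a and the h3f3b.1 rows of chromosomes 24 and 5. The gene h2afvb, of the H2A.Z family of variants found at gene starts, was the most abundant member in controls at 341 FPKM and had 614 FPKM in dead end morphants. For h2afx, whose protein is phosphorylated at DNA breaks, the values were 43.6 and 105 FPKM, and for the linker histone gene histh1l they were 111 and 234 FPKM. The rises were 1.80-fold, 2.42-fold and 2.12-fold, with q = 0.0451, 0.0311 and 0.00765 in the authors' deposited table. The q of h2afvb was the largest among the members. The chaperone genes nap1l1, whose protein carries H2A and H2B, and anp32a, of a family that shields histones from acetylation, stood at 80.6 and 199.6 FPKM in controls against at 146 and 372 FPKM in dead end morphants. Their rises of 1.81-fold and 1.86-fold (q = 0.0394 and 0.0363 in the authors' deposited table) were among the smallest of the members, and both turned lower relative to either reference.

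By median, HMG genes rose most among the classes with a chromatin role as printed (4.95-fold), a ranking that was not set against the implied errors. The gene hmgb3a (ENSDARG00000056725, chromosome 7, 25642031 to 25647088), for a protein that bends DNA, went from 38.9 to 226 FPKM (5.80-fold). The nucleosome-binding HMG gene hmgn2 went from 101 to 498 FPKM (4.95-fold), and hmgb1a from 82.4 to 246 FPKM (2.99-fold). All 3 had q = 0.00107 in the authors' deposited table, where 64.6% of all rows were higher. A further 3 rows carry clone names there but are HMGN genes in a reference table of gene names, and are therefore no members. The one named hmgn1a in the reference (ENSDARG00000097102) had 277 FPKM in controls against 1275 FPKM in dead end morphants, hmgn1b had 392 and 1202 FPKM, and hmgn6 had 181 and 522 FPKM. Their rises of 4.61-fold, 3.07-fold and 2.88-fold lay in the range of the HMG members or just under it, and q was 0.00107 for each in the authors' deposited table.

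Genes of the DNA methylation machinery rose on both its writing and its erasing side, where 64.6% of all rows were higher. The de novo methyltransferase gene dnmt3ba (ENSDARG00000052402, chromosome 8, 23334974 to 23359960) had 29.7 FPKM in controls against 90.2 FPKM in dead end morphants (3.04-fold with q = 0.00107 per the authors' deposited table). The genes tet3 and tet2 encode enzymes that oxidise methylcytosine. Their levels were far lower, from 3.11 to 12.4 FPKM for tet3 (4.002-fold) and from 1.85 to 4.74 FPKM for tet2 (2.56-fold), with q = 0.00679 and 0.0332 in the authors' deposited table. Both stayed under the control level of dnmt3ba in either group.

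All 6 histone demethylase genes rose, by 2.18-fold to 4.08-fold, where 64.6% of all rows were higher. Of them, phf2 turned lower relative to the ribosomal protein genes. The largest rise was that of kdm3b, whose mammalian protein removes repressive methyl groups from lysine 9 of histone H3, from 21.1 to 86.3 FPKM (q = 0.00107 per the authors' deposited table). The most abundant was kdm1a, the LSD1 demethylase of corepressor complexes, which went from 64.6 to 153 FPKM (2.36-fold with q = 0.0215 per the authors' deposited table). The gene kdm5bb, for an eraser of trimethyl marks at active gene starts, went from 29.0 to 68.9 FPKM (2.38-fold). Lower levels were given for kdm2ba, a Polycomb-linked demethylase that binds unmethylated CpG islands (8.39 and 21.5 FPKM), kdm7aa (6.09 and 17.5 FPKM) and phf2 (5.70 and 12.4 FPKM). For kdm5bb, kdm2ba, kdm7aa and phf2, q was 0.00259, 0.0191, 0.0187 and 0.0251 in the authors' deposited table.

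Among the genes classed as histone methylation writers by name, 3 rose (75%, against 64.6% of all rows) and 1 fell. The paralogs kmt2ca and kmt2cb, for the MLL3 methyltransferase of enhancers, had low levels and both rose, from 3.49 to 8.57 FPKM (2.46-fold, q = 0.0121) and from 4.74 to 15.8 FPKM (3.32-fold, q = 0.00107), both per the authors' deposited table. The Polycomb core gene suz12a, needed for methylation of lysine 27 of histone H3 in other vertebrates, went from 29.4 to 55.1 FPKM (1.87-fold with q = 0.0285 per the authors' deposited table). In the other direction, setd3 (ENSDARG00000016513, chromosome 17, 18012050 to 18050951) went from 33.1 to 11.1 FPKM (2.98-fold lower with q = 0.00107 per the authors' deposited table). In mammals its protein methylates a histidine of actin, so its place among histone writers rests on its name. In the deacetylase class, hdac1, the class I histone deacetylase, went from 221 to 488 FPKM (2.21-fold) and arid4a, a subunit of the Sin3 corepressor, from 37.3 to 71.2 FPKM (1.91-fold), with q = 0.00722 and 0.0334 in the authors' deposited table. Relative to the ribosomal protein genes both turned lower, as did suz12a, and relative to the table sum arid4a and suz12a did.

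Of the 11 remodeller genes 9 rose (81.8%, against 64.6% of all rows) and 2 fell. Among the rises, arid2 and smarcb1b turned lower relative to the ribosomal protein genes. Both falls were in SWI/SNF, the ATP-driven complex that slides and ejects nucleosomes, and both lost their call at q under 0.01. The ATPase gene smarca2 (BRM; ENSDARG00000008904, chromosome 5, 44538780 to 44684209) had 5.51 FPKM in controls against 1.19 FPKM in dead end morphants (4.63-fold lower with q = 0.0429 per the authors' deposited table). The scaffold gene smarcc1b (BAF155) had 20.0 and 9.20 FPKM (2.17-fold lower with q = 0.0349 per the authors' deposited table). The subunit gene smarcd1 (BAF60A; chromosome 22, 6979215 to 6995547) had 41.8 and 165 FPKM (3.96-fold higher with q = 0.00107 per the authors' deposited table). The SNF5 subunit gene smarcb1b rose from 43.4 to 101 FPKM and the PBAF subunit gene arid2 from 45.1 to 103 FPKM. The 3 genes for the DNA-binding ARID1 subunit rose together, arid1aa from 25.2 to 80.1 FPKM (3.17-fold), arid1ab from 38.4 to 94.6 FPKM (2.47-fold) and arid1b from 3.07 to 7.58 FPKM (2.47-fold). For smarcb1b, arid2, arid1aa, arid1ab and arid1b, q was 0.0256, 0.00324, 0.00107, 0.00259 and 0.0108 in the authors' deposited table. At 1.19 FPKM smarca2 lay close to the minimum level in dead end morphants, and its implied standard error, described with the error estimates, was the largest of the members at 1.13 on the log2 scale.

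The CHD remodellers, which carry chromodomains beside the ATPase, all rose with q = 0.00107 in the authors' deposited table, where 64.6% of all rows were higher. The gene chd7, known for its part in neural crest development, went from 51.9 to 205 FPKM (3.95-fold), the nucleosome remodelling and deacetylase (NuRD) ATPase gene chd4b from 57.7 to 142 FPKM (2.47-fold), and chd2 from 8.80 to 23.4 FPKM (2.66-fold). In dead end morphants chd7 was the most abundant remodeller gene of the class.

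Of the 8 reader rows 5 rose (62.5%, against 64.6% of all rows), 2 fell and cbx7b was not called, and the readers divided by family. Heterochromatin protein 1 (HP1), which binds methylated lysine 9 of histone H3, is encoded by cbx1a, cbx3a and cbx5, and all 3 rose. Their values were 50.3 and 128 FPKM for cbx1a (2.54-fold), 130.07 and 341 FPKM for cbx3a (2.62-fold) and 88.0 and 301 FPKM for cbx5 (3.42-fold), with q = 0.00107, 0.00107 and 0.0205 in the authors' deposited table. Summed over these rows HP1 transcripts went from 268 to 769 FPKM (2.87-fold). The Polycomb chromodomain gene cbx6a rose from 11.4 to 24.2 FPKM (2.12-fold with q = 0.0391 per the authors' deposited table), a rise that turned relative to the ribosomal protein genes, whereas cbx7b was under the minimum level. In the other direction went brd2b (ENSDARG00000046087, chromosome 16, 48771328 to 48805770), for a bromodomain reader of acetylated histones, from 21.9 to 5.75 FPKM (3.81-fold lower with q = 0.00107 per the authors' deposited table). The gene phf20a, whose mammalian counterpart is a subunit of the MOF acetyltransferase complex, went from 22.9 to 6.57 FPKM (3.49-fold lower with q = 0.00191 per the authors' deposited table).

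Finally, arid3b and arid3c match the name pattern but encode DNA-binding transcription factors. They went from 94.7 to 333 FPKM (3.52-fold) and from 10.9 to 62.9 FPKM (5.80-fold, just under hmgb3a), with q = 0.00107 for both in the authors' deposited table. Without them 41 of 47 members were higher and 5 lower.

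The members were more abundant than the table as a whole, and their median rise was smaller. Their median control level was 38.4 FPKM, against 16.8 FPKM over the table, and 36 of the 49 lay above the median of the table. Of the 43 rising members 14 (32.6%) rose at least 3-fold, against 741 of 1533 called rises (48.3%) with both values above 0. At 5-fold or more the shares were 4.65% and 17.6%. The median rise was 2.54-fold for members and 2.96-fold for all called rises, and 203 rises were larger than that of any member. On the scale of log2 (FPKM + 1) the median change of the called members was 1.25, against 1.19 over all called rows. Within the range of control levels that holds the central 80% of the members (4.49 to 145 FPKM), a range chosen after their values were seen, 34 of 39 members (87.2%) and 1228 of 1914 rows (64.2%) were called higher. The members lay on 22 of 25 chromosomes, with at most 6 on any, and none of their loci overlapped that of another row.

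**Figure D2:**
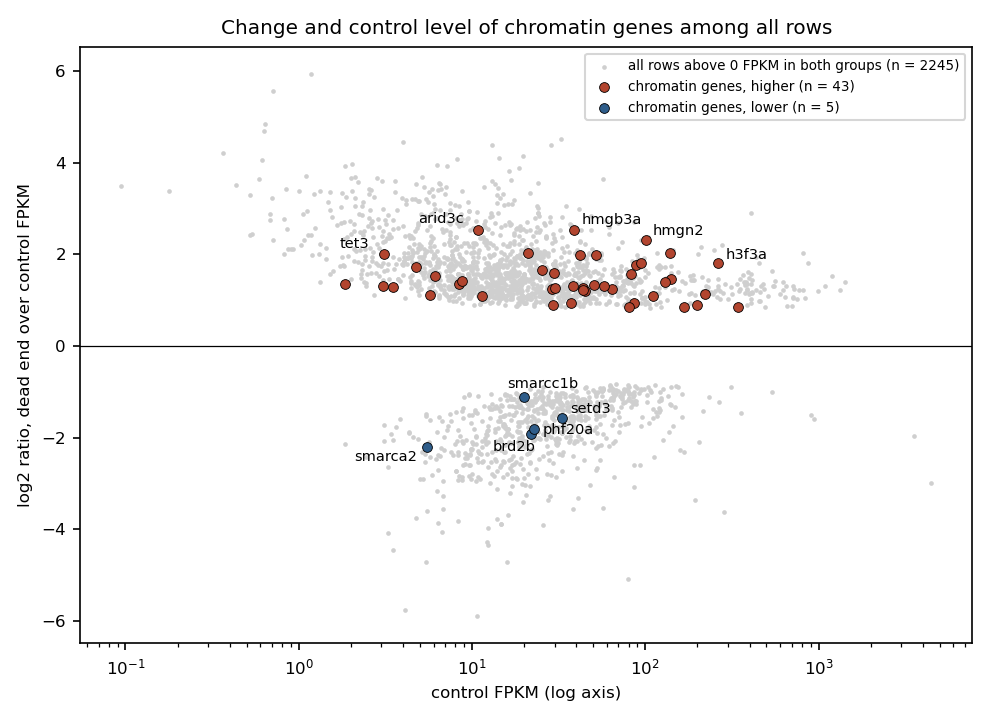
Log2 ratio of FPKM (dead end morpholino over control) against control FPKM (log axis) for the 2245 rows above 0 FPKM in both groups (grey), with the chromatin genes in red (43 higher) and blue (5 lower). No row lies near a ratio of 0 because the table holds only genes past the authors' q; the chromatin genes occupy the middle and right of the upper cloud, between 1.85 and 341 FPKM in controls, and their rises end at 5.80-fold.

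Genes of the same machinery outside the name pattern, listed with earlier results of these data known, were also mostly higher as deposited. Of 273 further chromatin genes listed by symbol, 66 were in the table. Of these 57 (86.4%) were higher and 9 (13.6%) lower in dead end morphants, against 64.6% and 33.6% of all rows. This count too depends on the reference. Rises such as those of banf1 (1.82-fold), ss18 (1.89-fold) and crebbpb (1.90-fold) lay under the ratio of the table sums (2.02). Further ones, such as those of ctcf (2.23-fold) and rcor1 (2.27-fold), lay under the ribosomal median (2.35-fold). The largest rises were those of smyd1b, a muscle methyltransferase gene (from 1.84 to 27.9 FPKM, 15.2-fold), the stress-response gene gadd45gb.1 (from 2.73 to 26.1 FPKM), the Polycomb-linked gene scml2 (from 17.4 to 96.2 FPKM, 5.53-fold) and prdm14 (from 2.09 to 13.2 FPKM), a regulator of germ cell and pluripotent states in mice. The largest falls were those of carm1l (2.43 FPKM in controls, listed at 0 in dead end morphants), the corepressor scaffold gene sin3aa (from 71.8 to 21.6 FPKM, 3.32-fold), msl1a of an acetyltransferase complex (from 42.7 to 14.0 FPKM, 3.05-fold) and smyd4 (from 15.01 to 5.23 FPKM, 2.87-fold). For smyd1b, gadd45gb.1, scml2 and prdm14, q was 0.0173, 0.0116, 0.00107 and 0.0146 in the authors' deposited table. For carm1l, sin3aa, msl1a and smyd4 the authors' deposited table gave q = 0.00107, 0.00107, 0.00324 and 0.0253, so 4 of these 8 genes did not reach q under 0.01.

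Members and these further genes were grouped into complexes after their values had been seen, as a description only. All 5 NuRD genes of the table rose, chd4b and hdac1 together with mbd3a (from 27.3 to 107 FPKM), mbd3b and rbbp4, of which hdac1 and mbd3b (2.16-fold) lay under the ribosomal median of 2.35-fold. Of 11 SWI/SNF genes 9 rose, actl6a, ss18 and pbrm1l among them, and the 2 that fell were smarca2 and smarcc1b. Of 10 called Polycomb genes 8 rose and 2 fell, jarid2a (from 13.8 to 5.53 FPKM) and rybpa (from 94.7 to 49.3 FPKM), while its paralog rybpb went from 9.07 to 21.5 FPKM. The COMPASS group, which methylates lysine 4 of histone H3, had 5 rises and 1 fall, cxxc1b (from 41.8 to 18.3 FPKM). Histone acetylation genes had 6 rises of 9 (66.7%, against 64.6% of all rows), among them ep300a and ep300b, and 3 falls, phf20a, msl1a and epc2. The Sin3 scaffolds also parted, sin3aa falling 3.32-fold and sin3b rising from 17.3 to 44.9 FPKM. Cohesin and CTCF genes, none of them members, gave 5 rises and 1 fall, nipbla. Each group thus held genes of both directions except NuRD and HP1, over few genes each. Outside NuRD, rises under the ribosomal median were those of ss18, arid2 and smarcb1b in SWI/SNF, suz12a and cbx6a in Polycomb, and hcfc1a in COMPASS. So were those of crebbpb and msl2a in histone acetylation, arid4a and rcor1 among the corepressors, and ctcf. These counts by complex, all as deposited, stand beside 64.6% of all rows higher, and no group was tested against that share.

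**Figure D3:**
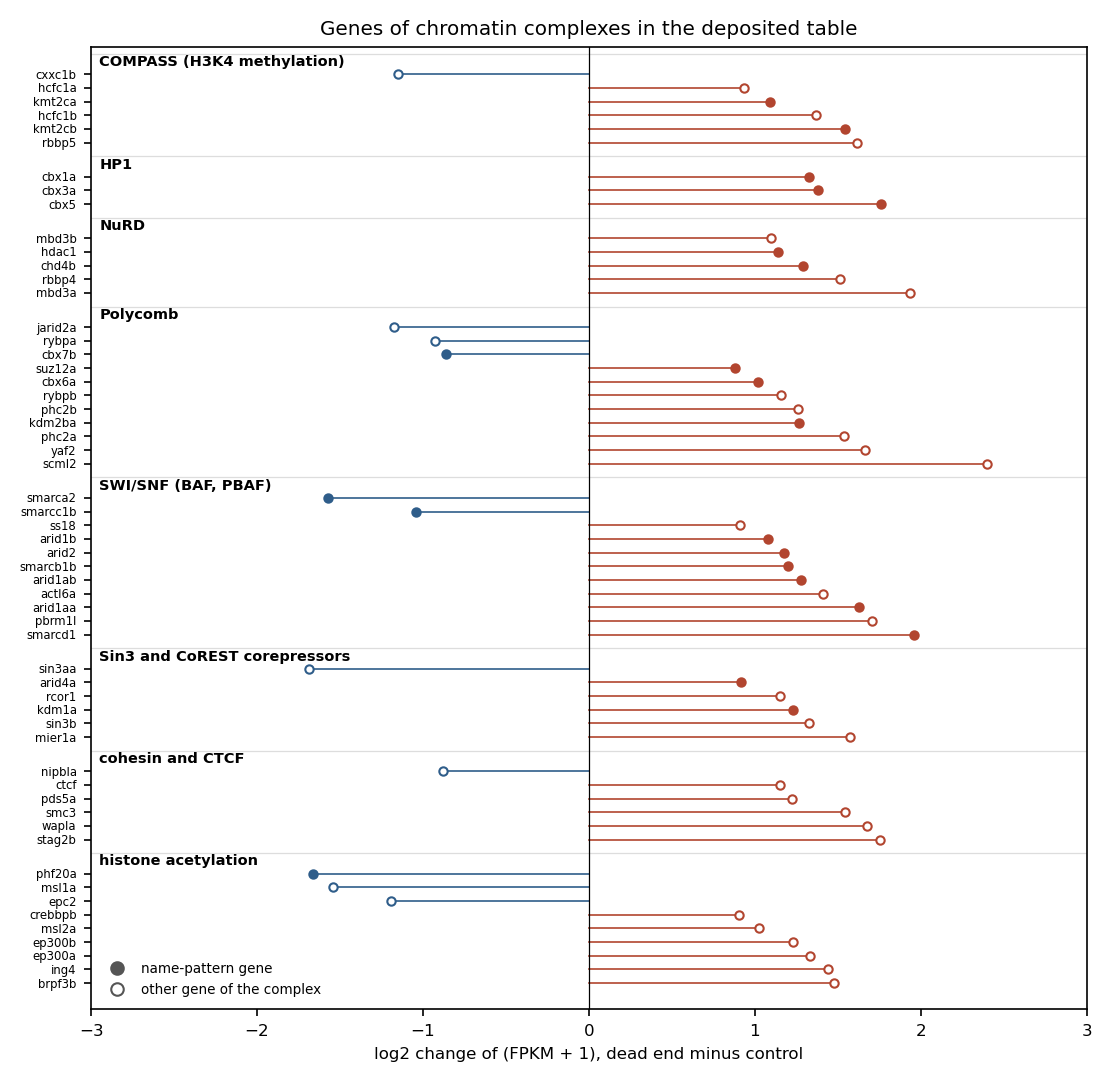
Change of each gene of 8 chromatin complexes or groups found in the authors' table, as log2 of (FPKM + 1) in dead end morphants minus controls; filled points are genes of the name pattern, open points are other genes of the complex, and colour gives the direction. The 5 NuRD and 3 HP1 genes all point to higher values as deposited (hdac1 and mbd3b lie under the ribosomal median). The other groups hold 1 to 3 lower genes, and each also holds rises under that median. The gene cbx7b is drawn although it lies under 1 FPKM.

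The authors' deposited table of enriched terms among genes higher in dead end morphants lists chromatin organization, with 34 genes where 12.93 were expected (2.63-fold, Bonferroni-corrected p = 0.00211), and covalent chromatin modification, with 23 genes where 7.75 were expected (2.97-fold, corrected p = 0.0199). These are 2 of the 374 terms in the authors' deposited table for higher genes. None of the 21 terms in the authors' deposited table for lower genes names chromatin, histones, nucleosomes or DNA methylation. The lists held 1204 higher and 498 lower genes, each set against a reference of 27187 genes, so terms are harder to find in the shorter list. Whether this reference was limited to genes detectable in these cells is not known here, and the ratios were not tested against such a limit. These tests rest on the same libraries as the values above.

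FPKM values are relative to the sequenced fragments of each library, so all changes are relative to the rest of the transcripts. Summed over all rows of the table, FPKM went from 117114 in controls to 236837 in dead end morphants, a ratio of 2.02. The 70 ribosomal protein rows all rose, with a median of 2.35-fold. Only ribosomal protein genes past the authors' q are among them, so this median may be too high for ribosomal protein genes as a whole. The table sums likewise cover only rows past that q, of which 64.6% were called higher, so their ratio may differ from that of all transcripts. Set against the ratio of the table sums, 36 called members were above it and 12 below (61.9% of all called rows were above). The members that turned were h2afvb, nap1l1, anp32a, suz12a, arid4a and both chromosome 15 rows of h3f3b.1. Set against the ribosomal protein median, 30 members were above and 18 below, with 50.6% of all called rows above, and histh1l, hdac1, cbx6a, phf2, arid2 and smarcb1b also turned. The rises of hmgb3a, hmgn2, chd7, smarcd1, kdm3b, tet3 and h3f3a kept their direction under either reference. Both references lower every fold alike, so the falls could not turn. Whether the sum of all transcripts differed between the groups was not tested, since the table holds only genes past the authors' q.

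**Figure D4:**
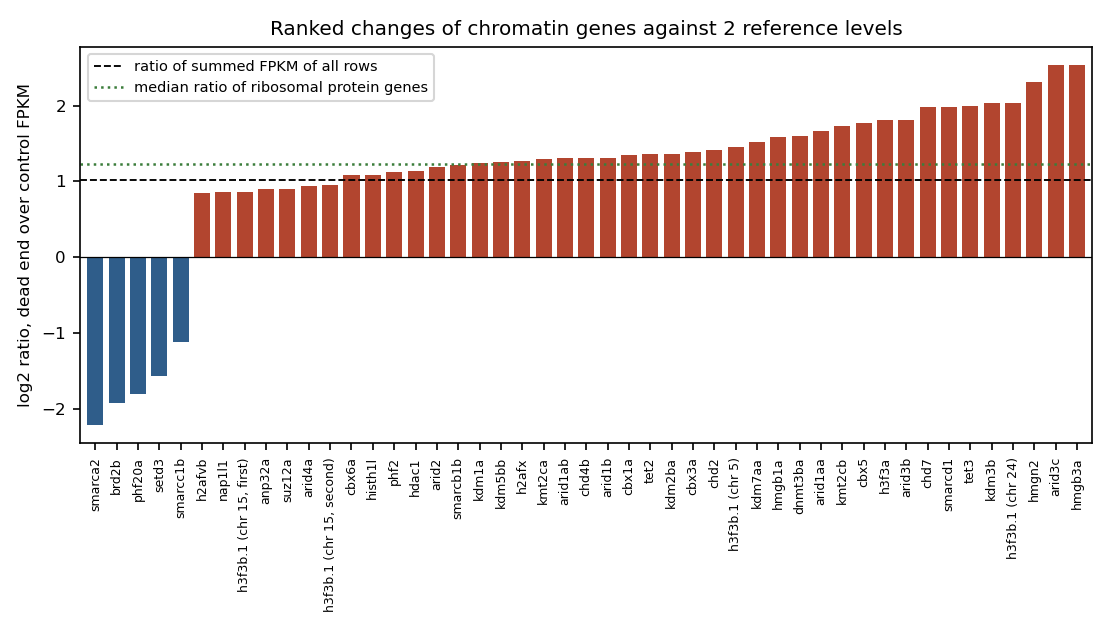
Log2 ratio of FPKM (dead end morpholino over control) for 47 of the 48 chromatin genes above 0 FPKM in both groups, ranked, with 1 bar per gene; the dashed line is the ratio of summed FPKM over all rows (1.02) and the dotted line the median of 70 ribosomal protein genes (1.23), both on the log2 scale. Of the 42 red bars, 35 reach above the dashed line and 29 above the dotted line.

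Markers of cell identity moved with these changes. Of 15 listed germ cell markers 9 were in the table, all lower, where 33.6% of all rows were lower. Their summed FPKM went from 10522 to 2355, with nanos3 at 3543 and 906 FPKM and ddx4 at 904 and 318 FPKM. Among somatic markers, myod1 of muscle stood at 6.38 and 68.1 FPKM and sox3 of neural tissue at 24.1 and 181 FPKM. The other 6 markers were not analysed here. All 10 listed mesoderm markers were higher, where 64.6% of all rows were, with a summed level of 184 FPKM in controls against 2557 FPKM in dead end morphants. For 8 of 9 neural markers the sums were 141 and 1069 FPKM, and for 5 of 7 epidermal markers 238 and 593 FPKM. No marker in the table was listed at 0 in either group, so somatic transcripts were already present in the sorted control samples. Of 16 proliferation genes 8 were in the table, as 9 rows, with 8 rows higher (88.9%, against 64.6% of all rows) and ccna2 lower. Their sum went from 596 to 1443 FPKM, a ratio of 2.42, and the rise of mcm3 (2.30-fold) lay under the ribosomal median. The part of somatic cells in the sort, of cell state or of proliferation in the rise of chromatin genes was not tested. In such bulk samples fewer cells of a type and less RNA per cell cannot be told apart.

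A rough measure of error comes from the authors' test statistic. If it is the log2 ratio divided by its standard error, the implied standard errors of the 48 members with a statistic ran from 0.44 to 1.13 with a median of 0.48 on the log2 scale, and the largest was that of smarca2. For 9 members the statistic was under 2 in size (18.8%, against 10.3% of 2245 rows): kmt2ca, anp32a, kdm1a, h2afvb, suz12a, cbx6a, nap1l1, the first h3f3b.1 row of chromosome 15 and smarca2. For kmt2ca a statistic of 1.64 stands beside p = 0.00115 in the authors' deposited table, so their p-values do not follow from a normal distribution of it. By these implied errors, the following paralog pairs among the members could not be ranked by size of change. The log2 rise of h3f3b.1 on chromosome 24 exceeded that of the first row on chromosome 15 by 1.17 with an implied standard error of 0.64, arid1aa exceeded arid1ab by 0.36 (0.73), kmt2cb exceeded kmt2ca by 0.44 (0.91) and tet3 exceeded tet2 by 0.64 (0.95).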

How the data were processed

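Reads of 4 libraries (2 per group) were processed by the submitters. Per the submitters' processing notes, the tools were cutadapt 1.10, Cufflinks 2.2.1, Cuffdiff and STAR 2.5.2b, and the builds GRCz10 and Zv9 are listed with no roles. Positions are printed as deposited and were taken as GRCz10, since the table reaches 74754136 on chromosome 4, beyond the end of that chromosome in Zv9. No source used here gives the strand setting.

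The authors deposited 1 FPKM value per gene and group, the log2 ratio of both (equal to the ratio of the FPKM values within 1.34e-05), a test statistic (a score), and a p-value and q-value per gene, per the file headers. Term tables deposited by the authors hold gene numbers, an enrichment ratio (observed over expected) and a p-value corrected over 3142 terms, from PANTHER (release 20160715), per the file headers. No test of the groups was run here, because the table has no value per library.

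Members were matched by name pattern and assigned to roles by hand with Python 3.11.15 and pandas 2.3.3. Calls used the authors' q under 0.05 and at least 1 FPKM in the higher group. Medians used log2 (FPKM + 1), which understates changes of low genes. No fold was computed for the 232 rows listed at 0 FPKM, which can be failed estimates. The counting was tested on simulated data. By the rule for named genes, every member was accounted for (1 is counted but not reported here by name or drawn by name), with the largest changes, the most abundant genes, the exceptions and the paralogs of each role in full. It also took the 4 largest changes each way among further chromatin genes and 4 context markers (pcna, also in the rule, was not analysed here). Other genes of complexes were named with their values known. The members and lists were chosen with earlier results of these data known. Identifiers of 48 members had an entry in the reference table of gene names, and 16 had the same symbol there. No sequences are printed.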

Additional observations from a re-analysis of the deposited data

How the results depend on the processing

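At q under 0.01 in the authors' deposited table, 25 members were higher and 3 lower, with a median log2 change of 1.497. The falls of smarca2 and smarcc1b and 18 rises then lost their call, and 71.6% of all called rows were higher. With no minimum FPKM the median was 1.24 and cbx7b counted as a sixth lower gene. With at least 5 FPKM it was 1.26 and tet2 lost its call. For members with a chromatin role it was 1.23, with a pseudocount of 0.1 it was 1.29, and as a plain log2 ratio 1.30. Counts of higher and lower members stayed within 1.5 times under these FPKM, role and zero settings, and leaving out members listed at 0 FPKM left all 3 results as they were.

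After scaling to the sums over the table, an alternative chosen after seeing the data, 12 members were lower and the median was 0.25. Relative to ribosomal protein genes, likewise chosen afterwards, 18 were lower and the median was 0.063. Over all called rows 927 and 1202 were lower under these 2 references, with medians of 0.21 and 0.0086. The table sums shift all changes by 1.02 and the ribosomal reference by 1.23 on the log2 scale.

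No paired analysis was possible because the table has 1 value per group, and leaving out single libraries could not be done for the same reason. The depth of the libraries is unknown, so no counting interval is given, and levels near 1 FPKM, such as those of smarca2 in dead end morphants and of tet2 in controls, are the least certain.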
